A study of Mus musculus with 28 samples.

Results

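Cultures labelled as bone marrow-derived macrophages carrying NFATc3-MKI were compared with their own control cultures, gene by gene. Several markers that define such macrophages were at or near 0 in both groups, so the cell type on the label is in doubt and the cells are called cultures here. The series holds 28 samples, of which 6 enter this comparison: 3 cultures labelled NFATc3-MKI and 3 controls. The deposited table of this set lists 56748 features, and all 13363 that passed a filter on low counts were tested. The filter took no account of the size or direction of a change. A gene could pass on its counts in either group alone, as Ccl7 and Iigp1 did, which were at 0 in the controls.

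The series asks what the transcription factor NFATc3 and the stress kinase ASK1 do in macrophages in diet-induced steatohepatitis, and it also holds livers of mice lacking either or both in myeloid cells, which are not analysed here. The controls carry the genotype label Lyz2-Cre, a Cre recombinase driven by the lysozyme M gene, which is active in myeloid cells. The other 3 cultures carry the label of a macrophage knock-in of NFATc3. The inserted sequence, its promoter and whether these cultures also carry Cre are not given in the labels, nor are the sex and age of the donor mice. By the labels, all 6 cultures were grown from bone marrow for 7 days with 30% L929-conditioned medium, which supplies the growth factor CSF1; the markers given below go against that origin. A further 6 cultures, labelled ASK1-MKI (3) and controls of the same Lyz2-Cre label (3), serve as a second set. Nothing says that the 3 cultures of a group came from separate mice, so the p-values measure the spread between these samples, which may be technical.

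NFATc3 belongs to a family of transcription factors that stay phosphorylated in the cytoplasm. When calcium rises, the phosphatase calcineurin strips these phosphates and the factor enters the nucleus, where it binds GGAAA core sequences, often beside AP-1. In myeloid cells the family is known for roles in cytokine genes and, through NFATc1, in osteoclast formation.

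Total counts ran from 7693464 to 9398163 per culture, which sets the precision of genes with few counts. A first principal component holding 59.4% of the variance of log2 CPM (counts scaled to the library size) placed the controls at −28.7 to −26.2 and the cultures labelled NFATc3-MKI at 22 to 31.1. NFATc3-MKI replicate 2 stood apart on the second component (14.4% of the variance), at 24.7 against −7.4 and −17.3 for the other cultures of its group and −8 to 8.9 for the controls. Its counts differed from those of replicates 1 and 3 by a chi-square per degree of freedom of 7.99 and 8.94, against 3.33 between those 2 and 2.82 to 6.16 between controls. Without it 4824 genes were called, against 4452 with it. Replicates varied with a biological coefficient of variation of 0.089 over all tested genes. Y-linked genes were counted in all 6 cultures, and Xist had at most 1 count in any. Of 5 tested Y-linked genes 3 were called lower in the cultures labelled NFATc3-MKI, among them Uty (log2 change −0.51, edgeR adjusted p = 0.00111) and Kdm5d (−0.32, edgeR adjusted p = 0.0407); the Kdm5d call was lost with DESeq2 (0.0723), without the filter (0.0574) and when control replicate 2 (0.111) or 3 (0.133) or NFATc3-MKI replicate 1 (0.0886) or 3 (0.225) was left out.

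The cell type on the label was checked against 12 macrophage markers. Csf1r, the receptor for CSF1, had 2068, 2465 and 2327 counts in the controls and 3133, 3201 and 3522 in the cultures labelled NFATc3-MKI. Cd68, a lysosomal glycoprotein of macrophages, had 5562, 7086 and 5996 counts in the controls and 7516, 9592 and 7826 in the other group. Lyz2, Itgam and Fcgr1 were counted in every culture as well. The 3 complement genes C1qa, C1qb and C1qc, which resident and CSF1-grown macrophages make in large amounts, had 0 counts in all 6 cultures. The efferocytosis receptor Mertk and the mannose receptor Mrc1 had 0 or 1 count in each. These values go against the label of mature macrophages in both groups, and what the cells are was not tested.

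The cultures of the ASK1 set carried the same cell type label and gave other values. Adgre1, which encodes the macrophage antigen F4/80, stood at 31.6, 32.2 and 30 CPM in the NFATc3 set's controls and 32.7, 32.6 and 36.3 CPM in its knock-in cultures, against 2697, 2704 and 2739 CPM in the ASK1 set's controls. Mycn, a MYC family oncogene found in progenitor cells, stood at 970.4, 983 and 1070.1 CPM in the NFATc3 set's controls and 958, 810.2 and 1029 CPM in its knock-in cultures (log2 difference −0.11 ± 0.10, edgeR adjusted p = 0.387). It had 0 counts in all 6 cultures of the ASK1 set. Of the other 10 progenitor markers, Cdk6, a kinase of the cell cycle, was the only one to pass the filter. It stood at 245, 273 and 247 CPM in the controls and 189, 214 and 179.6 CPM in the cultures labelled NFATc3-MKI (−0.39 ± 0.09, edgeR adjusted p = 0.00131). Kit, Myb, Sox4 and Meis1 had 0 counts in all 6 cultures, and Cd34, Gfi1, Erg, Spink2 and Flt3 had 0 to 5 counts in each. The immunoglobulin heavy chain gene Ighm had 1888, 2036 and 2060 counts in the controls and 1647, 2030 and 1551 in the cultures labelled NFATc3-MKI, while the B cell genes Ms4a1 and Igkc had 0. Both groups of the NFATc3 set hold these features, and their part in the results was not tested. Ighm was lower in the cultures labelled NFATc3-MKI (−0.30 ± 0.09, edgeR adjusted p = 0.0105), a call lost without NFATc3-MKI replicate 3 (edgeR adjusted p = 0.0925). The 2 tables were deposited separately, so levels are set side by side only.

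**Figure D1:**
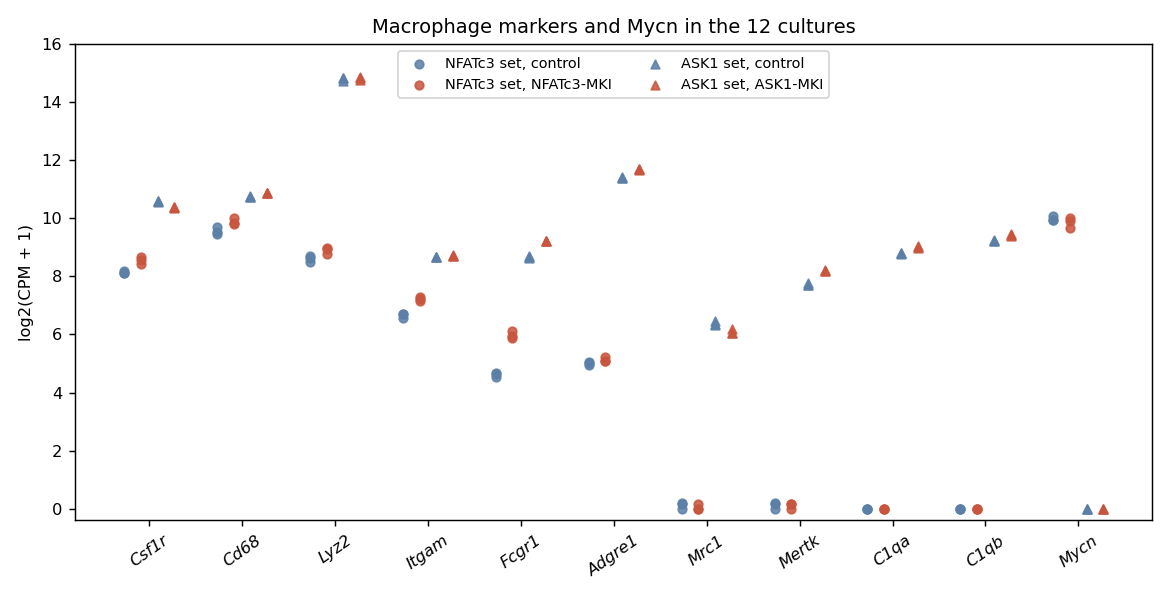
Levels of macrophage markers and Mycn in each of the 12 cultures, as log2(CPM + 1), with circles for the NFATc3 set and triangles for the ASK1 set (blue for controls, red for knock-in cultures; 3 points a group). C1qa, C1qb, Mertk and Mrc1 lie at or near 0 in the NFATc3 set only, and Mycn at 0 in the ASK1 set only. CPM of the ASK1 set are not TMM-scaled.

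The targeted gene was examined before all others. Nfatc3 (chromosome 8, 106058840 to 106130537 in mm10) stood at 90.8, 105 and 96.2 CPM in the controls and 76.7, 90.4 and 76.3 CPM in the cultures labelled NFATc3-MKI. The groups did not overlap, but the lowest control and the highest knock-in culture lay within 1 CPM of each other. The log2 change was −0.26 ± 0.10 (SE), with an edgeR quasi-likelihood adjusted p of 0.0371 and a two-sided exact permutation p of 0.1, the smallest that 20 assignments of the labels allow. The gene counted under this name was therefore not higher in the cultures whose label names a knock-in of it. Whether an inserted copy would be counted as Nfatc3 was not tested. DESeq2 did not call it (adjusted p = 0.0523), nor did edgeR when any of 4 cultures was left out: control replicate 2 (0.157) or 3 (0.0902), or NFATc3-MKI replicate 1 (0.143) or 3 (0.166). All directions below refer to cultures by their label.

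Other members of the family were not higher either. Nfat5, the relative that responds to osmotic stress without calcineurin, stood at 791, 834 and 845 CPM in the controls and 494, 611 and 485 CPM in the cultures labelled NFATc3-MKI. All knock-in cultures lay below all controls, and Nfat5 fell (log2 change −0.64 ± 0.09, edgeR adjusted p = 1.58e-05). Nfatc1 stood at 61.3, 70.8 and 77.7 CPM and 48.5, 57.6 and 53.5 CPM in the same order and fell (−0.39 ± 0.10, edgeR adjusted p = 0.0053), a call lost without control replicate 3 (0.0648). Nfatc2 stood at 28.1, 35.6 and 34.6 CPM and 31.4, 31.4 and 29.8 CPM, with overlapping groups (−0.09 ± 0.12, edgeR adjusted p = 0.589). Nfatc4 did not pass the filter.

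Across all 13363 tested genes, 4452 (33.3%) passed an edgeR adjusted p of 0.05. Of these, 2203 (16.5%) were higher in the cultures labelled NFATc3-MKI and 2249 (16.8%) lower. Only 361 of the higher and 230 of the lower genes differed by at least 2-fold, and the log2 changes of all tested genes ran from −0.71 at the 5th percentile to 0.76 at the 95th. The median log2 change of all tested genes was 0. The groups did not overlap for 6120 (45.8%) of the tested genes, so groups that lie apart, as given for many genes here, are common. The gene just inside the threshold was Ercc5 (log2 change 0.34) and the one just outside Magef1 (−0.40). Shares called were between 30.3% and 38.9% on each autosome and on the X chromosome, and 60% of the 5 tested genes on the Y.

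Among 28 tested genes for NFAT factors, calcineurin and its regulators, 2 rose and 10 fell, with a median log2 change of −0.08. The share called was 42.9%, against 33.3% over all tested genes. Ppp3cc, a catalytic subunit of calcineurin, rose from 11.7, 11.4 and 9.42 CPM to 16.7, 21.9 and 15.5 CPM (log2 change 0.74 ± 0.17, edgeR adjusted p = 0.00133), and Homer3, a scaffold that competes with calcineurin for NFAT, rose by 0.30. Chp1, which encodes a calcineurin-like regulator, fell from 164, 168 and 171 CPM to 117, 121 and 121 CPM (−0.49 ± 0.08, edgeR adjusted p = 6.98e-05). The NFAT kinases Csnk1e (−0.57), Dyrk1a (−0.40), Dyrk2 (−0.33) and Gsk3a (−0.24) fell. Rcan1, a calcineurin inhibitor that is itself a common NFAT target, had a log2 difference of 0.20 ± 0.15 (edgeR adjusted p = 0.311). The count of lower members was 5 without control replicate 3 and 6 without NFATc3-MKI replicate 3, and that of higher members was 1 without control replicate 1 or 3 or NFATc3-MKI replicate 1 or 3.

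**Figure D2:**
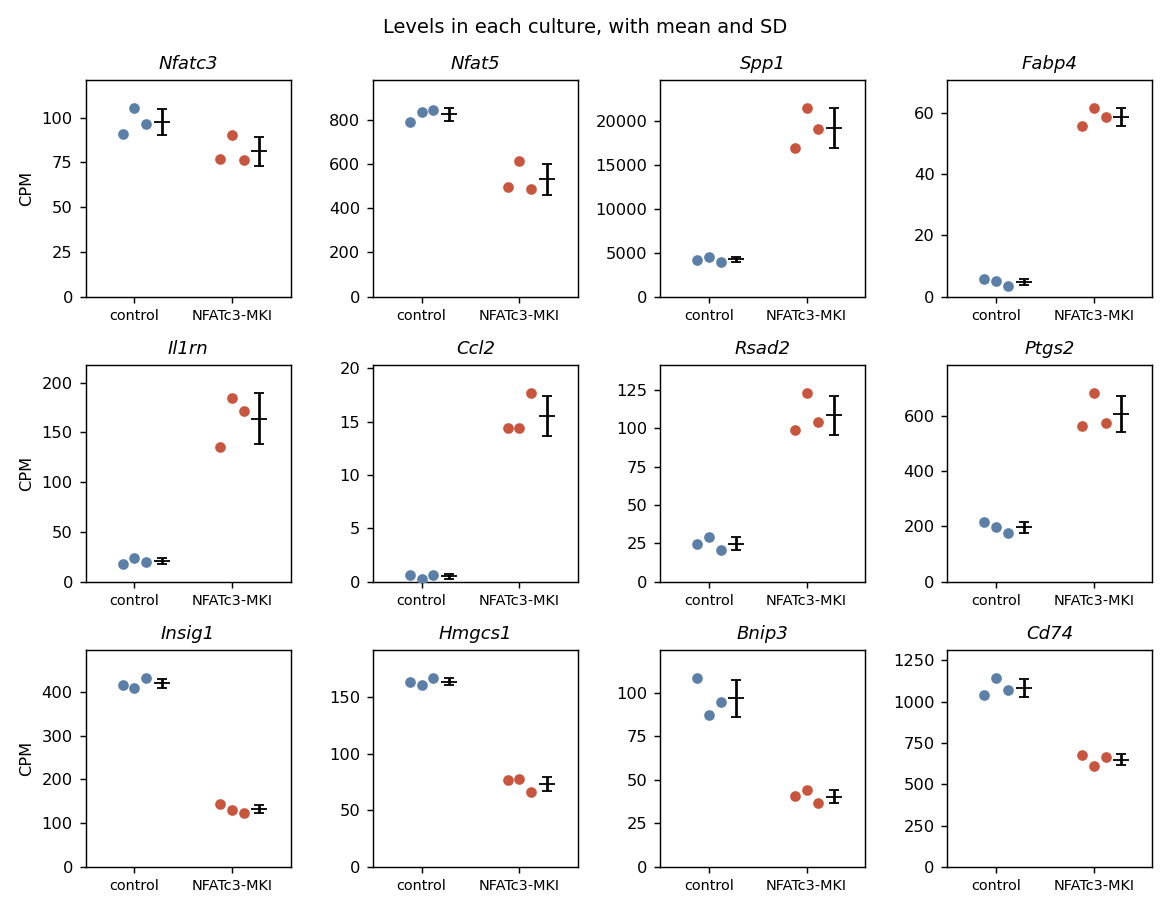
Levels in CPM of 12 genes in each of the 3 control (blue) and 3 NFATc3-MKI (red) cultures, with the group mean and SD in black; each axis starts at 0. The groups are apart in every panel, with the closest values for Nfatc3. The panels begin with Nfatc3 and Nfat5, both lower in the NFATc3-MKI cultures. Genes that rose follow (Spp1, Fabp4, Il1rn, Ccl2, Rsad2, Ptgs2), then genes that fell (Insig1, Hmgcs1, Bnip3, Cd74).

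Secreted inflammatory mediators were higher in the cultures labelled NFATc3-MKI. Of 15 tested chemokine ligands and receptors 11 rose and 1 fell, with a median log2 change of 1.25, and of 17 classical activation genes 12 rose and 0 fell (median 1.19). The monocyte attractant Ccl2 stood at 0.666, 0.233 and 0.589 CPM in the controls and 14.4, 14.4 and 17.7 CPM in the other cultures (4.95 ± 0.30, edgeR adjusted p = 1.18e-11). Its neighbour Ccl7 had 0 counts in all 3 controls and stood at 1.19, 1.62 and 1.39 CPM in the cultures labelled NFATc3-MKI, which is at least 11.5-fold higher against a floor of 3 counts over the group. Among chemokines with higher counts, Ccl4, a chemoattractant of leukocytes, went from 211, 186 and 164 CPM to 483, 533 and 465 CPM (1.40 ± 0.10, edgeR adjusted p = 7.77e-11), Ccl9 rose by 1.25 and Ccl5 by 1.25. The groups were apart for each of these. The chemokine that fell was Cxcl16 (−0.61), a ligand that also acts as a scavenger receptor, and the count that fell was 2 without control replicate 2.

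Cxcl2, a neutrophil attractant, stood at 141, 132 and 117 CPM in the controls and 326, 369 and 363 CPM in the cultures labelled NFATc3-MKI (1.44 ± 0.09, edgeR adjusted p = 2.5e-11). Its promoter is printed because it alone, of the 6 chemokine genes that rose and had a window, held the NF-kB element searched for (16.7%, against 0.356% of all windows). The 250 bases before its RefSeq gene start (GRCm38.p6, chr5:90903649-90903898, plus strand) hold 1 match to the NF-kB element GGGANTTTCC, given in capitals.
Cxcl2: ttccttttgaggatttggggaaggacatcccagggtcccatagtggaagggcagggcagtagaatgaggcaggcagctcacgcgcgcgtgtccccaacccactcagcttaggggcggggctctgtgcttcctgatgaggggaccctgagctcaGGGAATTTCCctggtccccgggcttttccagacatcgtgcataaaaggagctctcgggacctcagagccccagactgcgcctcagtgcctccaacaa
That element was searched on both strands and occurs in 0.356% of 32851 promoter windows of this length, in 0.432% of those of 1619 matched genes that rose and in 0.249% of those of 1608 that fell. The NFAT core GGAAA, whose reverse complement lies inside that element, occurs in 55.6% of all windows, in 58.5% of those of genes that rose and in 52% of those of genes that fell. A match is a description of the letters in the window and does not show binding.

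Of the cytokine genes, Il6 stood at 0.533, 0.349 and 0.589 CPM in the controls and 4.65, 6.46 and 6.93 CPM in the cultures labelled NFATc3-MKI (3.59 ± 0.37, edgeR adjusted p = 8.19e-08), and Il1b at 0.666, 0.698 and 0.706 CPM and 4.29, 5.82 and 4.97 CPM (2.84 ± 0.35, edgeR adjusted p = 1.31e-06). Both are low in level, and each was apart between groups. Tnf, the main tumour necrosis factor, had more counts and moved less, from 260.4, 270.4 and 267 CPM to 424, 446 and 486 CPM (0.77 ± 0.08, edgeR adjusted p = 2.08e-07). Ptgs2, the inducible cyclooxygenase, rose from 215, 199.7 and 176 CPM to 564, 683 and 576 CPM (1.63 ± 0.10, edgeR adjusted p = 1.12e-11).

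Inhibitors of these signals were among the genes that rose. Il1rn encodes the antagonist of the interleukin-1 receptor and went from 17.4, 23.5 and 20 CPM to 135, 185 and 171 CPM (3.01 ± 0.13, edgeR adjusted p = 1.1e-13), with the groups far apart. In the list of 20 interleukin-1 family and inflammasome genes that holds it, 13 rose and 0 fell (median 0.51). Socs3, a feedback inhibitor of cytokine receptors, rose from 66.1, 83.1 and 71 CPM to 205, 176 and 239.7 CPM (1.49 ± 0.11, edgeR adjusted p = 8.64e-10). Irak3, which restrains Toll-like receptor signalling, rose by 1.49, the mRNA-decay factor Zfp36 by 0.87 and the shed receptor Tnfrsf1b by 1.29. Of 30 Toll-like receptor and NF-kB feedback genes 11 rose and 3 fell (median 0.29), so 46.7% were called, against 33.3% over all tested genes. Without control replicate 3 the count that rose was 5. The count that fell was 1 when control replicate 1 or 2 or NFATc3-MKI replicate 1 or 3 was left out. The co-receptor Cd14 went from 197, 199 and 181 CPM to 447, 489 and 507 CPM (1.32 ± 0.09, edgeR adjusted p = 4.46e-11).

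Interferon response genes were higher: of 54 tested, 44 rose and 2 fell (Stat2 and Dtx3l), with a median log2 change of 1.13 against 0 for all genes. The count that fell was 1 when control replicate 2 or 3 or NFATc3-MKI replicate 1 or 3 was left out. These genes are induced by type I or II interferons through STAT and IRF factors and act against viruses and intracellular microbes. Rsad2, which encodes the antiviral enzyme viperin, stood at 24.6, 28.9 and 20.5 CPM in the controls and 98.6, 123 and 104 CPM in the cultures labelled NFATc3-MKI (2.14 ± 0.12, edgeR adjusted p = 6.02e-12). Zbp1, a sensor of Z-form nucleic acid, went from 4.4, 3.72 and 3.77 CPM to 17.3, 21.1 and 19.3 CPM (2.28 ± 0.18, edgeR adjusted p = 1.31e-09). Isg15, a ubiquitin-like modifier, went from 11.2, 9.53 and 7.89 CPM to 38.6, 28.3 and 40.5 CPM (1.91 ± 0.16, edgeR adjusted p = 2.65e-09). No knock-in culture lay as low as any control for these 3 genes. The transcription factor Irf8, which myeloid cells need to become monocytes, rose from 78.8, 88.7 and 85.7 CPM to 159, 135 and 163 CPM (0.85 ± 0.09, edgeR adjusted p = 2.22e-07).

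Several interferon genes were near absence in the controls. Iigp1, an interferon-inducible GTPase, had 0 counts in the 3 controls and stood at 1.31, 1.72 and 1.39 CPM in the cultures labelled NFATc3-MKI, at least 12.2-fold higher against the same floor. Gbp5, a guanylate-binding protein, stood at 0, 0.116 and 0.118 CPM and 1.31, 2.26 and 3.47 CPM, a count ratio of 29 (95% interval 7.69 to 245), and Ifi208 at 0.133, 0.116 and 0.118 CPM and 2.03, 2.05 and 1.62 CPM, a count ratio of 15.6 (95% interval 5.03 to 78.1). Ifi209 had more counts and went from 1.07, 0.233 and 1.06 CPM to 16.7, 18.5 and 16.8 CPM (4.46 ± 0.28, edgeR adjusted p = 2.95e-11). The Ifi20x and Gbp genes are families of similar copies, and how reads shared between copies were counted is not given, so values of single members are uncertain. Intervals here cover counting error only.

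The window of Rsad2 (GRCm38.p6, chr12:26456453-26456702, minus strand, printed 5′ to 3′ along the gene) is shown for the interferon group, with its match to the core of the interferon-stimulated response element GAAANNGAAA (here on the other strand) in capitals.
Rsad2: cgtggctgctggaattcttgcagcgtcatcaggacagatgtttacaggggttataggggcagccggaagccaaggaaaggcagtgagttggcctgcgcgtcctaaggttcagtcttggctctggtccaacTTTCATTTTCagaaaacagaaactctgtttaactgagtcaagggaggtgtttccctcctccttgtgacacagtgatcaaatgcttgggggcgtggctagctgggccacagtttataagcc
The match lies 111 to 120 bases before the gene start. Of 34 interferon genes that rose and had a window, 16 (47.1%) held this element, against 2.98% of all windows. The element can overlap the GGAAA core, which occurs in 29 of the same 34 windows. Oas3, Bst2, Slfn5 and Slfn8, which were not called, and Stat2, which fell, held the interferon element as well. Irf1, not called, and Dtx3l, which fell, lacked it. The element is therefore not particular to the members that rose.

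Macrophage genes present in both groups were mostly higher in the cultures labelled NFATc3-MKI. Of 22 tested pan-macrophage genes 13 rose and 1 fell (median 0.44), and of 32 scavenger, lectin and efferocytosis receptors 17 rose and 3 fell (median 0.51). Fcgr1, the high-affinity receptor for immunoglobulin G, stood at 24.5, 22.2 and 24.1 CPM in the controls and 58.3, 60.9 and 68.2 CPM in the other cultures (1.40 ± 0.11, edgeR adjusted p = 7.83e-10). The scavenger receptor Msr1 went from 54.7, 72.2 and 53.2 CPM to 225, 266 and 273 CPM (2.08 ± 0.11, edgeR adjusted p = 5.78e-12), and the lectin Clec4d from 51.8, 58.9 and 49.9 CPM to 125, 142 and 121 CPM (1.27 ± 0.10, edgeR adjusted p = 7.86e-10). None of these overlapped between groups. Csf1r rose by 0.43 on the log2 scale. The pan-macrophage gene that fell was Cd33, a sialic acid receptor, from 184, 221 and 191 CPM to 84.9, 94.6 and 78.1 CPM (−1.21 ± 0.10, edgeR adjusted p = 1.16e-09). Without control replicate 2, 2 pan-macrophage genes fell, and without control replicate 3 only 1 gene of the scavenger list did.

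The gene with the largest shift in share of all counts was Spp1. It encodes osteopontin, a secreted matrix protein of lipid-associated and scar-associated macrophages, and stood at 4218, 4555 and 4001 CPM in the controls and 16957, 21526 and 19129 CPM in the cultures labelled NFATc3-MKI (2.17 ± 0.11, edgeR adjusted p = 9.17e-13). It took 0.406% to 0.459% of all counts in the controls and 1.69% to 2.13% in the other group. Of 22 tested genes of lipid-associated macrophages 15 rose and 1 fell, with a median of 0.44. Fabp4, which carries fatty acids, went from 5.59, 5.12 and 3.53 CPM to 55.8, 61.7 and 58.7 CPM (3.63 ± 0.15, edgeR adjusted p = 2.07e-14). The lipid droplet coat gene Plin2 rose from 224, 166 and 189.6 CPM to 574, 642 and 601 CPM (1.65 ± 0.10, edgeR adjusted p = 1.19e-11), and the fatty acid transporter Cd36 from 2.26, 1.05 and 1.53 CPM to 7.99, 10.7 and 8.78 CPM (2.51 ± 0.28, edgeR adjusted p = 2.17e-07). For all 4 genes every knock-in culture lay above every control. Apoe, the lipid carrier, was the member that fell (−0.79), a call lost without control replicate 2 or NFATc3-MKI replicate 2. Trem2, the receptor that names this state, rose by 0.38, and Gpnmb had a log2 difference of 0.16 ± 0.09 (edgeR adjusted p = 0.168).

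Several growth factors acting on other cells were also higher. Of 10 tested genes of fibrosis and matrix remodelling 7 rose and 2 fell (median 1.03), with 29 of the 39 listed genes too low to test. Pdgfb, a mitogen of mesenchymal cells, went from 18, 22.2 and 16.2 CPM to 54.9, 53.7 and 68.5 CPM (1.65 ± 0.13, edgeR adjusted p = 1.12e-09), and the EGF receptor ligand Hbegf from 23.3, 28.7 and 26.4 CPM to 69.6, 73.8 and 68.1 CPM (1.43 ± 0.11, edgeR adjusted p = 4.31e-10). Edn1, which encodes the vasoconstrictor endothelin 1, stood at 0, 0.116 and 0.118 CPM in the controls and 3.46, 3.12 and 4.97 CPM in the cultures labelled NFATc3-MKI, a count ratio of 47.2 (95% interval 12.7 to 395). The members that fell were Vegfa (−0.74), the vascular growth factor, and Gas6 (−0.78), the ligand of efferocytosis receptors. Without control replicate 3 the count that fell was 1.

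Genes of cholesterol synthesis were lower in the cultures labelled NFATc3-MKI. This pathway is driven by SREBP2, which cells activate when sterol in the endoplasmic reticulum is low and which INSIG1 holds back. Of 26 tested members 20 fell and 1 rose, with a median log2 change of −0.68. Insig1, itself a target of the pathway, stood at 416, 409.7 and 431 CPM in the controls and 143, 130.5 and 123 CPM in the other cultures (−1.66 ± 0.09, edgeR adjusted p = 9.17e-13). Hmgcs1, which makes the precursor HMG-CoA, went from 163, 161 and 166 CPM to 77, 77.1 and 66.3 CPM (−1.15 ± 0.09, edgeR adjusted p = 8.64e-10), and Lss, which closes the sterol rings, from 163, 156 and 172 CPM to 84.7, 70 and 79.1 CPM (−1.07 ± 0.09, edgeR adjusted p = 3.84e-09). The groups of each were far apart. Stard4, a sterol carrier, fell from 112, 111 and 115 CPM to 55.2, 54.1 and 50.5 CPM. The member that rose was Scap (0.29), the escort of SREBP, and this call was lost with DESeq2, without the filter and when any culture other than NFATc3-MKI replicate 2 was left out.

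The window of Hmgcs1 (GRCm38.p6, chr13:119690101-119690350, plus strand) is shown for this group, with its match to the sterol regulatory element TCACCNNAC in capitals.
Hmgcs1: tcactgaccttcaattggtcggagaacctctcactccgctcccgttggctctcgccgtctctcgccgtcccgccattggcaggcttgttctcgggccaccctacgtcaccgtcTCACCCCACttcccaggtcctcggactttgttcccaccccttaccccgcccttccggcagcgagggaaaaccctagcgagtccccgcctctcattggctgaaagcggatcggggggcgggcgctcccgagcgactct
Of 13 cholesterol genes that fell and had a window, 4 (30.8%) held the element, against 2.59% of all windows, on either strand.

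Lipogenic genes were lower as well. Of 18 tested genes of lipogenesis and desaturation 12 fell and 1 rose (median −0.31). Scd1 and Scd2, which make monounsaturated fatty acids, went from 103, 105 and 107 CPM to 50.1, 52.4 and 53.2 CPM (−1.02 ± 0.09, edgeR adjusted p = 6.96e-09) and from 844, 919 and 898 CPM to 489, 454 and 469 CPM (−0.92 ± 0.09, edgeR adjusted p = 1.56e-08). Fasn, the fatty acid synthase, went from 259, 336 and 293 CPM to 204, 177 and 201 CPM (−0.61 ± 0.10, edgeR adjusted p = 2.77e-05). No control overlapped a knock-in culture for these 3 genes. Of 15 genes regulated by the oxysterol receptor LXR 6 fell and 2 rose (median −0.23), and Abcg1, a cholesterol exporter, went from 71.4, 81.7 and 71 CPM to 50.9, 50 and 53.1 CPM (−0.54 ± 0.10, edgeR adjusted p = 0.000128). The LXR count that rose was 4 without NFATc3-MKI replicate 2.

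Hypoxia response genes were lower too. These are genes that HIF factors switch on when oxygen is scarce. Of 17 tested, 14 fell and 0 rose (median −0.74). Bnip3, which marks mitochondria for removal, stood at 108, 87.4 and 94.7 CPM in the controls and 40.4, 44.1 and 36.5 CPM in the cultures labelled NFATc3-MKI (−1.26 ± 0.10, edgeR adjusted p = 2.27e-09). Egln1, the oxygen-sensing hydroxylase, went from 48.7, 43 and 49.7 CPM to 21.3, 17.9 and 22.1 CPM (−1.21 ± 0.12, edgeR adjusted p = 3.83e-08), and Ero1l, an oxidase of the endoplasmic reticulum, from 1558, 1301 and 1455 CPM to 674, 665 and 546 CPM (−1.19 ± 0.10, edgeR adjusted p = 2.38e-09). All 3 were lower in every knock-in culture than in any control. Of 24 glycolysis genes, several of which HIF also controls, 8 fell and 1 rose (median −0.11). The share called was 37.5%, close to the 33.3% over all tested genes. Pdk1, which keeps pyruvate out of mitochondria, fell by 0.76, and the myeloid hexokinase Hk3 rose by 0.89.

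The window of Bnip3 (GRCm38.p6, chr7:138909507-138909756, minus strand) is shown for this group, with its matches to the core of the hypoxia response element ACGTG in capitals. They are 2 matches on opposite strands that overlap.
Bnip3: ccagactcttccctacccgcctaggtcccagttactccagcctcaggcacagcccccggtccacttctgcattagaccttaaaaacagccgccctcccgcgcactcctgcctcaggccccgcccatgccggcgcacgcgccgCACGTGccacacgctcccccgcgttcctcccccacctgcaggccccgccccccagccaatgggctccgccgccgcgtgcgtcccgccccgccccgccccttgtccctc
Of 11 hypoxia genes that fell and had a window, 5 (45.5%) held ACGTG. It occurs in 16.6% of all windows, in 22.6% of those of all 9153 matched tested genes and in 25.5% of those called lower. Hif1a, P4ha1 and Slc2a1, the members with a window that were not called, held it too. Its presence is therefore not particular to the members that fell.

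Genes of the circadian clock were mostly lower. Of 16 tested, 11 fell and 1 rose (median −0.53). The activator Clock went from 132, 150.0 and 140.1 CPM to 90.2, 88.9 and 74.2 CPM (−0.74 ± 0.09, edgeR adjusted p = 2.28e-06), and the repressor Per3 from 11.6, 9.53 and 11.4 CPM to 3.94, 4.53 and 4.16 CPM (−1.36 ± 0.20, edgeR adjusted p = 1.57e-05). The member that rose was Nfil3, a repressor of clock output, from 54.2, 52.2 and 47.4 CPM to 80.7, 83.2 and 75.9 CPM (0.64 ± 0.10, edgeR adjusted p = 1.6e-05). Arntl, the partner of Clock, had a log2 difference of −0.06. Both activators and repressors of the loop were among the genes that fell.

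Several stress genes of the endoplasmic reticulum rose. Of 34 tested genes of the unfolded protein and integrated stress responses 16 rose and 1 fell (median 0.23). Ddit3, which encodes the stress factor CHOP, went from 239, 202 and 209 CPM to 530.2, 529 and 484 CPM (1.25 ± 0.09, edgeR adjusted p = 1.9e-10), and its partner Trib3 from 28.9, 32.7 and 23.1 CPM to 68.7, 57.6 and 67.5 CPM (1.19 ± 0.12, edgeR adjusted p = 5.13e-08). The asparagine synthetase Asns, a target of ATF4, went from 182, 217 and 165 CPM to 348, 382 and 362 CPM (0.95 ± 0.09, edgeR adjusted p = 4.21e-08). Each of these 3 had every knock-in culture above every control. The member that fell was the kinase Eif2ak3 (−0.43), a call lost without control replicate 2 or NFATc3-MKI replicate 3. Of 29 NRF2 and glutathione genes 10 rose and 2 fell (median 0.10), led by Sqstm1, an autophagy receptor, from 484, 509 and 417 CPM to 904, 825 and 922 CPM (0.91 ± 0.09, edgeR adjusted p = 5.96e-08). In that list 41.4% were called, against 33.3% over all tested genes. The count of NRF2 genes that fell was 1 without control replicate 3 or NFATc3-MKI replicate 2.

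Of 32 immediate early genes 12 rose and 5 fell (median 0.22). Egr1, which responds within minutes to growth factors, went from 24.2, 24.5 and 23.7 CPM to 64, 107 and 92.7 CPM (1.86 ± 0.15, edgeR adjusted p = 7.44e-08), and the AP-1 member Fosl1 from 4.79, 5.46 and 6.24 CPM to 14.2, 16.5 and 16.9 CPM (1.52 ± 0.18, edgeR adjusted p = 7.05e-07). Zfp36l1, a relative of Zfp36, went the other way, from 222, 252 and 228 CPM to 126, 136 and 107 CPM (−0.93 ± 0.09, edgeR adjusted p = 5.92e-08).

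Of 12 tested MHC class II genes, which present antigen to helper T cells, 4 fell and 0 rose (median 0.02), a share called equal to the 33.3% over all genes. Of 23 MHC class I and immunoproteasome genes 4 rose and 2 fell (median 0.12), or 26.1%. Cd74, the invariant chain, stood at 1038, 1142 and 1070.2 CPM in the controls and 675, 609 and 664 CPM in the cultures labelled NFATc3-MKI (−0.74 ± 0.09, edgeR adjusted p = 7.03e-07), and its regulator Rfx5 at 43, 29.6 and 36.1 CPM and 20.3, 23.3 and 20.7 CPM (−0.76 ± 0.13, edgeR adjusted p = 0.000119). H2-Aa, which encodes a class II chain, had a log2 difference of 0.03 and was not called.

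Of 52 cell cycle genes 14 fell and 3 rose (median −0.11), so 32.7% were called, close to the 33.3% over all tested genes. The mitotic gene Cenpf went from 121, 104 and 114 CPM to 48.5, 65.4 and 50.9 CPM (−1.04 ± 0.11, edgeR adjusted p = 9.29e-08), and Top2a, which untangles replicated DNA, from 362, 318 and 336 CPM to 219.8, 258 and 227 CPM (−0.53 ± 0.09, edgeR adjusted p = 6.35e-05). Ccnd1, the cyclin of early G1, rose from 217, 219.7 and 209.8 CPM to 286, 330.4 and 353 CPM (0.58 ± 0.09, edgeR adjusted p = 1.94e-05). The count that fell was 9 without control replicate 3 and 24 with limma's voom, and the count that rose was 5 without NFATc3-MKI replicate 2. The 10 tested mitochondrially encoded genes held 0 calls by edgeR in either direction.

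**Figure D3:**
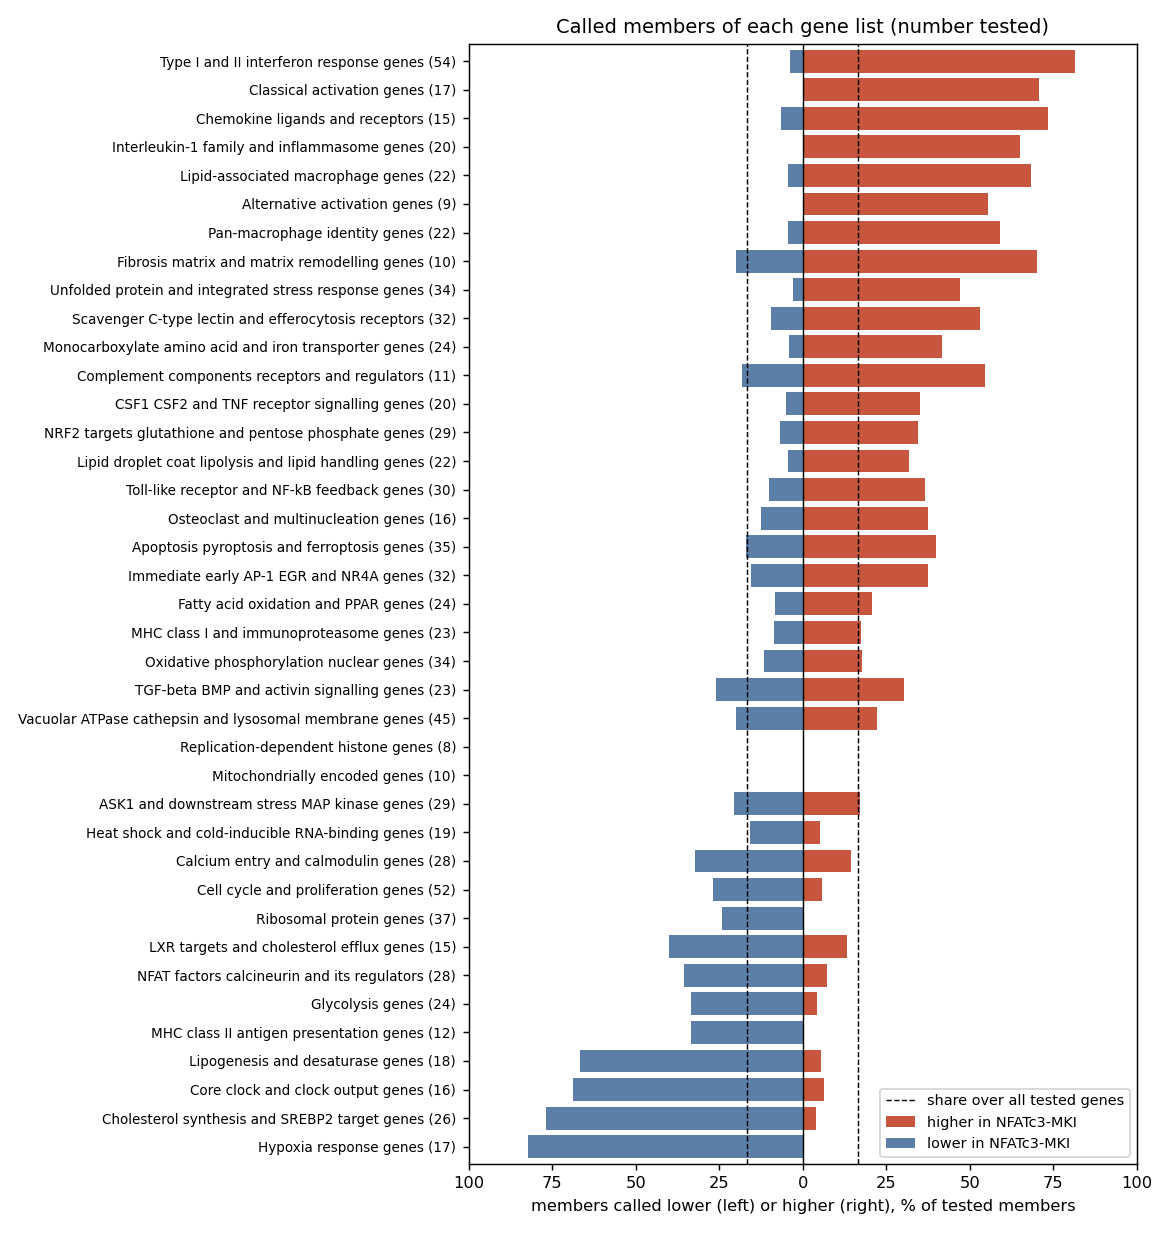
Share of tested members of each of 39 gene lists called higher (red, right) or lower (blue, left) in the cultures labelled NFATc3-MKI, in percent of the members tested, whose number stands in brackets; dashed lines mark the shares over all 13363 tested genes, 16.5% higher and 16.8% lower. Interferon, classical activation and chemokine lists lie at the top, and hypoxia, cholesterol synthesis and clock lists at the bottom.

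Marker lists of other cell types were read beside these results. Of 13 neutrophil markers 7 had 0 counts in all 6 cultures (S100a8, S100a9, Camp, Ngp, Ltf, Retnlg and Mmp8), and the summed level of the list was 152 to 234 CPM in the controls and 321 to 459 CPM in the cultures labelled NFATc3-MKI. Lcn2, a secreted siderophore-binding protein that inflamed macrophages also make, accounted for most of it at 150.1, 232 and 158 CPM and 319, 457 and 414 CPM (1.14 ± 0.20, edgeR adjusted p = 0.00482). Monocyte markers summed to 12.4 to 14.4 CPM in the controls and 13.4 to 17.8 CPM in the other group, with Plac8, Chil3 and Ace at 0 counts in all 6. Ly6c1, which is nearly identical to Ly6c2 and therefore uncertain, stood at 0.133, 0 and 0 CPM and 3.46, 2.37 and 1.96 CPM. Among adipocyte markers Adipoq, Plin1 and Lep had 0 counts in all 6 cultures, so the rise of Fabp4 came without them. Fibroblast markers summed to at most 1.96 CPM in any culture. In bulk cultures, fewer cells of a type and less RNA per cell cannot be told apart.

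The 12 that rose most were Iigp1, Ccl7, Ly6c1, Gm5483, Edn1, Ccl2, Gbp5, Ifi209, 4930438A08Rik, Ifi208, C330022C24Rik and Urah. Urah, which encodes a hydrolase of the uric acid pathway, went from 5.86, 9.77 and 6.71 CPM to 95.6, 81.5 and 114 CPM (3.69 ± 0.16, edgeR adjusted p = 1.55e-12), and the unnamed locus C330022C24Rik from 4, 4.88 and 3.06 CPM to 49.6, 55.6 and 60.8 CPM (3.79 ± 0.16, edgeR adjusted p = 2.07e-14). Gm5483, a member of the stefin family of near-identical copies, is uncertain, at 0.133, 0.116 and 0 CPM and 3.22, 4.42 and 4.51 CPM. The 12 that fell most were Gm13091, Gm29488, Grin1os, Gm43667, Grin1, Ranbp3l, Lrp2bp, 9930024M15Rik, Gm42664, Gm44270, Gm45220 and C030037D09Rik, mostly at low level. Ranbp3l, a nuclear export factor for SMAD proteins, went from 39.4, 28.3 and 38.9 CPM to 7.27, 6.46 and 6.82 CPM (−2.37 ± 0.16, edgeR adjusted p = 5.4e-11). Grin1, a glutamate receptor subunit, stood at 4.93, 6.63 and 5.06 CPM and 1.91, 0.539 and 0.694 CPM, and its antisense partner Grin1os at 5.06, 3.37 and 4.36 CPM and 0.596, 0.862 and 0.578 CPM. The strand setting of the counting is not given, so reads of that pair may not be told apart.

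Some noncoding classes held more lower than higher calls. Of 263 tested loci of the annotation class TEC (tentative loci without experimental support) 63 fell and 11 rose, with a median of −0.30, and of 25 sense-intronic loci 9 fell and 0 rose (median −0.42). Malat1, an abundant nuclear RNA, took 0.481% to 0.591% of all counts in the controls and 0.279% to 0.349% in the cultures labelled NFATc3-MKI (−0.72 ± 0.11, edgeR adjusted p = 2.5e-05). The part of this shift in the other results was not tested. Of 10798 tested protein-coding genes 2016 rose and 1906 fell, with a median of 0.02.

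The change in the cultures labelled NFATc3-MKI was then set against the change in those labelled ASK1-MKI, each taken within its own table. Of 12132 genes tested for a difference of the changes, 3636 (30%) passed an edgeR adjusted p of 0.05, with 2097 more positive and 1539 more negative in the NFATc3 set. That fit shares the dispersion of each gene between the sets, though their replicates varied unequally. Chi-square per degree of freedom between replicates was 2.82 to 8.94 in the NFATc3 set and 1.59 to 1.99 in the ASK1 set. The SE and intervals of the differences may therefore be too narrow, their p-values too small and the count of 3636 too high. The groups of the ASK1 set differ in more than their label: Y-linked genes such as Ddx3y stood at 97.5, 98.8 and 95 CPM in its controls and 0, 0 and 0 in the cultures labelled ASK1-MKI, so the label and the sex of the donors cannot be told apart in that set. The 2 sets also differed in the macrophage markers and in Mycn given above.

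Many leading genes of the NFATc3 set differed from the ASK1 set in size or direction. Spp1 changed by 2.17 in the NFATc3 set and −0.55 in the ASK1 set on the log2 scale (difference 2.73 ± 0.10, edgeR adjusted p = 4.35e-18). Il1rn changed by 3.01 and −0.01 in the same order (difference 3.02 ± 0.13, edgeR adjusted p = 1.63e-16), and Insig1 by −1.66 and −0.11 (−1.55 ± 0.10, edgeR adjusted p = 8.99e-13). Interferon gene Rsad2 and class II gene Cd74 went opposite ways in the 2 sets, with differences of 2.68 ± 0.12 and −1.89 ± 0.09. For other genes no difference passed the test. Ccl5 changed by 1.25 and 1.21, and the 95% interval of its difference was −0.16 to 0.26. Bnip3 changed by −1.26 and −1.49 (interval −0.01 to 0.48), and Pfkfb3, a glycolytic regulator under HIF control, by −0.62 and −0.59 (interval −0.19 to 0.13). These intervals leave room for differences of the size they span.

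**Figure D4:**
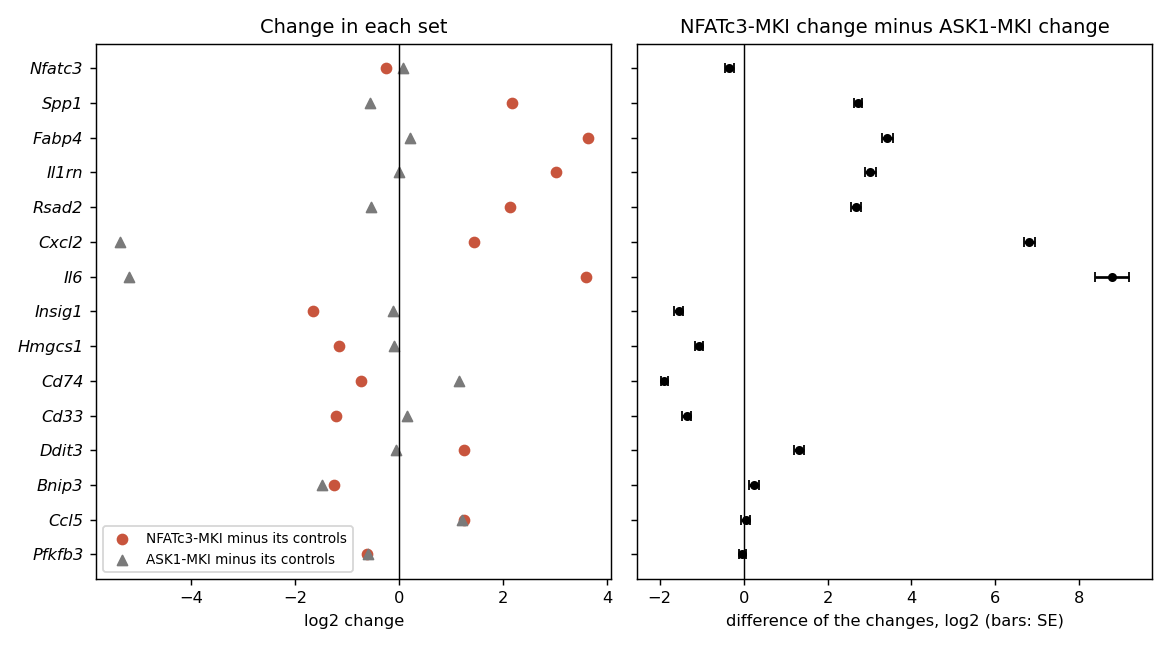
Left, log2 change of 15 genes in the cultures labelled NFATc3-MKI (circles) and ASK1-MKI (triangles), each against its own controls; right, the difference of the 2 changes with its SE. Cxcl2 and Il6 have the largest differences of the genes drawn, and Bnip3, Ccl5 and Pfkfb3 lie near 0.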

How the data were processed

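RNA from 6 cultures was made into dUTP strand-specific libraries after poly-A purification, per the labels' protocols, and aligned to mm10 with HISAT2, per the submitters' processing notes. For the counting program, its gene models and its use of strand, nothing is stated in the sources used here. The deposited tables hold raw counts per Ensembl gene, which the authors had not normalized: 56748 features for this set (32076 at 0 in all 6 cultures, 52125 matched to names in GENCODE vM21) and 21958 identifiers shared with the ASK1 set, whose totals ran from 16051951 to 18728508. No column lacked a sample.

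Genes were kept by filterByExpr, scaled by TMM and tested with edgeR 4.0.16 (R 4.3.3; robust quasi-likelihood F test, Benjamini-Hochberg over all tested genes, adjusted p under 0.05). SE is the log2 change divided by the square root of F. CPM were computed by edgeR on TMM-scaled library sizes. The exception is the CPM given for single cultures of the ASK1 set, which are counts over total counts. TMM factors in that set ran from 0.99 to 1.012. Difference of changes: one fit of both sets, 12 cultures, with the dispersion of each gene shared by both sets. The script was tested on simulated data. Members, the 39 gene lists, 19 marker lists and the rule for named genes were chosen with earlier results of these data known. The rule named the NFAT genes, the 12 genes that rose and the 12 that fell most (groups apart, at least 1 CPM), the 4 called members of each list with the smallest p, and the 2 most abundant of each marker list and of lists with no call. Other genes named, among them Adgre1, Csf1r, Irf8, Isg15, Tnf, Uty and Kdm5d, markers at 0 and members with only a log2 change, were picked once their values were known. Other settings tried were DESeq2 1.42.0 (size factors; Wald test), limma 3.58.1 voom with quality weights, other filters and thresholds, the replicate block, each culture left out and, added after seeing the data, protein-coding genes only. Promoter windows are the 250 bases before each gene start in RefSeq's table for GRCm38.p6; 9153 tested genes matched by symbol, at the first entry of each. Livers were not analysed here, and some genes are not reported here.

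Same-numbered cultures of both groups had correlations of their deviations of 0.02, −0.07 and 0.05, so the numbers were not taken to pair them. No pair of libraries agreed within sampling noise.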

Additional observations from a re-analysis of the deposited data

Results flagged for a closer look

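The change in cultures labelled NFATc3-MKI differed from that in cultures labelled ASK1-MKI for 12 of the 15 genes drawn, by edgeR's test of the difference (NFATc3 set minus ASK1 set, log2 ± SE), against 30% of all 12132 genes tested. The 15 were picked with their values known, most as leading genes of the NFATc3 set, so this count is a description. The difference was positive for Spp1 (2.73 ± 0.10), Fabp4 (3.43 ± 0.13), Il1rn (3.02 ± 0.13), Rsad2 (2.68 ± 0.12) and Ddit3 (1.32 ± 0.12). It was larger for Cxcl2 (6.81 ± 0.13) and Il6 (8.79 ± 0.40), which rose in the NFATc3 set (1.44 and 3.59) and fell in the ASK1 set (−5.37 and −5.19). It was negative for Insig1 (−1.55 ± 0.10), Hmgcs1 (−1.06 ± 0.09), Cd74 (−1.89 ± 0.09), Cd33 (−1.36 ± 0.10) and Nfatc3 (−0.34 ± 0.10). The adjusted p-values of these differences by edgeR ran from 2.41e-24 (Cxcl2) to 0.00834 (Nfatc3). They come from the fit with shared dispersion and, like the SE, may be too small. In the ASK1 set the sex of the donors and the label cannot be told apart.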

How the results depend on the processing

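The count of called genes (4452) was 3885 with DESeq2, 5390 with voom, 4378 without a filter, 4465 at a mean of at least 1 CPM, 4450 with DESeq2's size factors, 4148 of protein-coding genes only and 5493 at an adjusted p under 0.1. With at least 2-fold change it was 591 (361 higher, 230 lower). Leaving out 1 culture gave 3272 to 4824 calls (1604 to 2391 higher, 1668 to 2433 lower). With the replicate number as a block it was 4296, of which 4218 were shared with the fit without it, so the count moved by less than 1.5 times; the labels give no pairing. The count for the difference of changes (3636) was 4256 with voom, 3500 with the block and 3110 to 4027 with 1 culture left out. Nfatc3 had −0.27 with DESeq2, where its call was lost, and −0.35 to −0.21 with 1 culture left out; the cause was not tested. Of 179 other called genes followed through every alternative with a test, 165 kept their call and 0 reversed. The other 14 lost it when 1 culture was left out (among them Ighm, Itgax, Acadl, Cd68, Lyz2, Psme1, Nfatc1, Sdhb, Uqcrq, Eef2, Rpl3, Rplp2 and Kdm5d). Apoe, Scap and Eif2ak3, whose lost calls are given above, are not among the 179. Fitted changes of genes near 0 in the controls moved most: Ly6c1 was 5.55 and 7.5 without control replicate 1, Iigp1 6.66 and 4.58 with voom, and Ccl7 6.59 and 4.5 with voom. Depth limits these genes most.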

Other observations

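Of 24 tested genes of monocarboxylate, amino acid and iron transport 10 rose, 1 fell and 13 were not called (median 0.18). The share called was 45.8%, against 33.3% over all tested genes. Slc40a1, the iron exporter ferroportin, went from 4.66, 3.95 and 4.24 CPM in the controls to 13.6, 9.16 and 12.5 CPM in the cultures labelled NFATc3-MKI (1.45 ± 0.21, edgeR adjusted p = 1.13e-05), and Fth1, the ferritin heavy chain, from 9165, 8814 and 8132 CPM to 13649.6, 15439 and 13316 CPM (0.70 ± 0.10, edgeR adjusted p = 1.53e-05). Slc7a5, a carrier of large neutral amino acids, went from 57, 71.2 and 61.8 CPM to 125, 98.6 and 133 CPM (0.91 ± 0.11, edgeR adjusted p = 1.39e-06). No culture of one group lay within the range of the other for these 3 genes.

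Of 16 osteoclast and multinucleation genes 6 rose and 2 fell (median 0.15), and without NFATc3-MKI replicate 3 the count that fell was 1. Dcstamp, which cells need to fuse, went from 7.86, 8.84 and 7.18 CPM to 11.8, 17.9 and 18.6 CPM (1.02 ± 0.19, edgeR adjusted p = 0.000172), and the acid phosphatase Acp5 from 2.13, 4.07 and 3.41 CPM to 6.44, 7.76 and 8.09 CPM (1.20 ± 0.25, edgeR adjusted p = 0.000677). Ctsk, the protease of mature osteoclasts, had 1 to 4 counts in each culture. Skil, a repressor of the TGF-beta pathway, fell from 37.8, 38.5 and 38.1 CPM to 18.2, 24.5 and 22.9 CPM (−0.80 ± 0.12, edgeR adjusted p = 2.24e-05). In the list of 23 TGF-beta, BMP and activin genes that holds it, 7 rose and 6 fell.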
